A study of Danio rerio with 48 samples.

Results

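The comparison described here sets retinas taken at 24 h post light onset (24 hpl) in the chronic low light (CLL) model against retinas taken at the dark baseline (0 h). Its members are the 6 libraries of 24 hpl and the 6 of 0 h, 12 of the 48 libraries of the CLL time-course, chosen by time-point alone. Each library is 3′ mRNA-seq of the left-eye retina of 1 adult zebrafish of the albino (alb) strain, aged 6 to 9 months. All fish, the 0 h fish included, had first spent 24 h in the dark, and the 24 hpl fish then spent 24 h under continuous halogen light of about 5000 lux. The other 36 libraries, 6 each of 36 and 72 hpl and of 5, 10, 14 and 28 days of light (dpl), enter the same statistical fit. They share in its estimate of spread and in the filter on low values. Their levels are used only to ask whether a level at 24 hpl differed from that of the later time-points. No 24 hpl retina came from a fish kept in the dark for the same extra day, so light and elapsed time cannot be told apart. The samples are whole retinas, and the study's methods state that some pigment epithelium and vitreous may be included.

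Rods and cones detect light with opsins in their outer segments, which start a G protein cascade that ends in the closure of cyclic nucleotide-gated channels. In zebrafish, light also resets clocks within the tissue itself, since many cells induce period and cryptochrome genes, photolyases and other repair genes directly when lit. Bright or prolonged light stresses photoreceptors, and Müller glia, microglia and the pigment epithelium respond to that stress.

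Values are edgeR pseudocounts, counts that the authors adjusted to a common library size, and they summed to 1629375 to 1633004 per library, so the depth of a library is not known from them. Fold changes are log2 differences of value + 1 from limma, 24 hpl minus 0 h, from a fit with terms for time-point and for library set, and adjusted p is Benjamini-Hochberg over 11395 tested genes. Each retina came from a separate fish. The p-values rest on the spread between retinas of the same time-point, pooled over all 48 libraries. The study ran 2 rounds of light treatment, and the p-values do not measure the spread between rounds. The libraries form 2 sets of 3 per time-point, and the study does not say which round of light treatment each belongs to. All genes counted as changed by at least 2-fold had the same sign within both sets, which calling them on both sets together favours. The second principal component of the 12 libraries (21.4% of the variance, against 24.1% for the first) separated the sets. It ran from 28.6 to 43.5 in set 1 and from -48.9 to -27.6 in set 2. On the first principal component, 24 hpl replicates 1, 4 and 6 had 74.7, 44.2 and 48.2, and replicates 2, 3 and 5 had 24.9, 15.9 and 13.7. The 0 h retinas had -45.8 to -29.5. One retina, 24 hpl replicate 1, lay furthest from the rest of its group. The main counts, and list counts that moved by more than 1.5 times, are also given without it. All 13 retina markers in the table passed the filter on low values. By the adjusted p alone 3 of them were higher and 6 lower at 24 hpl. The higher ones were arr3a, gad1b and glula. The 13 markers summed to 50400 to 74100 at 24 hpl, against 77300 to 93100 at 0 h. By median, rho was the largest part of this sum, with 25400 at 24 hpl and 59700 at 0 h, so the sum largely follows rho. The photoreceptor transcription factor crx had a log2 fold change of -0.02 (adjusted p = 0.95). Markers of lens, red blood cells, skin, muscle and eggs gave no call, and those of pigment epithelium and neutrophils are given beside the genes they move with.

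At 24 hpl, 582 genes were higher than at 0 h (5.11% of those tested) and 314 were lower (2.76%), counting changes of 2-fold or more with an adjusted p below 0.05. Without 24 hpl replicate 1 the counts were 497 and 256. By the adjusted p alone, the rule used below for single genes and list members, 8.37% of genes were higher and 7.14% lower. Members of a gene list that did not pass the filter on low values are left out of its counts. All 6 retinas at 24 hpl lay above all 6 at 0 h for 3.98% of genes and below them for 2.92%. The median log2 fold change of all tested genes was -0.069. Since whole retinas were measured, fewer cells of a type and less RNA per cell cannot be told apart from these values alone. For cones, the study counted outer segments (ultraviolet, blue and green) and double cone somas in right eyes. It found no significant difference in these numbers over the CLL time-course. It also reports that green cone outer segments were already shorter at 24 hpl, with sparse debris that stained for opsin.

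The 5 largest falls among all tested genes were cone opsins. All 8 listed cone opsins fell, with a median log2 fold change of -4.11, and all 8 also fell without 24 hpl replicate 1 and within either library set alone. Together they held 0.138%, 0.383% and 0.799% (lowest, median and highest retina) of the signal at 24 hpl, against 2.22%, 2.89% and 3.17% at 0 h. The 4 green opsins are tandem copies, as are the 2 red ones, and how reads shared between such copies were counted is not stated, so values for single copies are uncertain.

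Among the green opsins, opn1mw2 had values of 38.5, 67.1 and 213 at 24 hpl (lowest, median and highest of 6 retinas, here and below), against 5760, 6574 and 8783 at 0 h. Its log2 fold change was -6.41 ± 0.46 (SE, adjusted p = 1.26e-15). For opn1mw1 the values were 2.16, 9.75 and 228 at 24 hpl, against 404, 1996 and 3173 at 0 h. The highest 24 hpl retina, replicate 3, stood apart from the next, replicate 5 at 22.1, yet lay below every 0 h retina. Its fitted change was -6.73 ± 0.92 (SE, adjusted p = 2.1e-07). The copy opn1mw3 had a median of 137 at 24 hpl, against 1849 at 0 h (-4.06). The copy opn1mw4 had a median of 165 at 24 hpl, against 2750 at 0 h (-4.15). No green opsin overlapped between the groups.

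The red opsin opn1lw1 had 257, 772 and 1561 at 24 hpl, against 8026, 11750 and 13550 at 0 h, a log2 fold change of -3.87 ± 0.37 (SE, adjusted p = 1.89e-11). Its neighbour opn1lw2 had 4.86, 53.7 and 301 at 24 hpl, against 264, 1435 and 4530 at 0 h, and here the highest 24 hpl retina passed the lowest 0 h retina (-4.73, adjusted p = 4.59e-07). The short-wavelength opsins had the fold changes nearest 0 of the 8, a difference that was not tested. The blue opsin opn1sw2 had 333, 1259 and 2280 at 24 hpl, against 5342, 7182 and 8429 at 0 h (-2.71, adjusted p = 9.8e-10). The ultraviolet opsin opn1sw1 had 1096, 3340 and 9576 at 24 hpl, against 9577, 12740 and 14870 at 0 h (-1.94, adjusted p = 7.3e-07), and its highest 24 hpl retina lay just under its lowest 0 h retina.

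**Figure D1:**
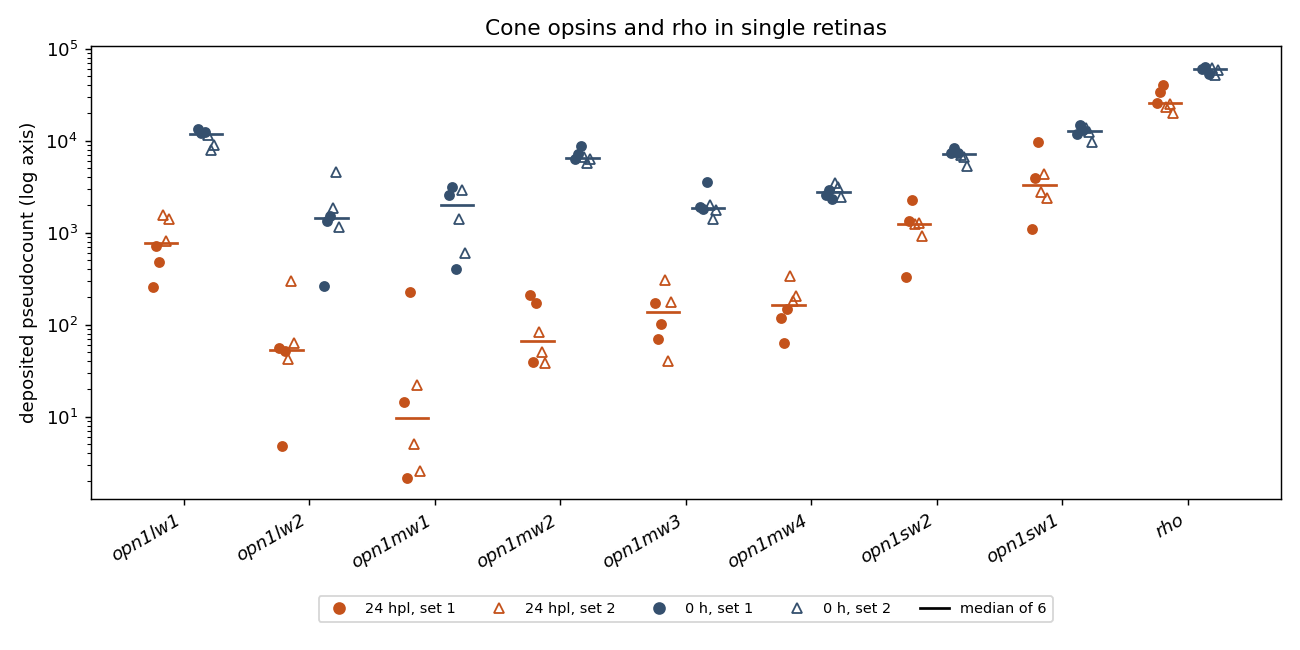
Deposited pseudocount (log axis) of the 8 cone opsins and rho in each retina, 24 hpl left of 0 h for each gene, with filled circles for set 1, open triangles for set 2 and a bar at the median of 6. For opn1mw2 the 24 hpl retinas run from 38.5 to 213, all below the 0 h retinas, whereas for opn1lw2 the groups overlap.

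The rod opsin rho fell as well. It had 20130, 25440 and 40180 at 24 hpl, against 52020, 59710 and 64130 at 0 h, with no overlap, and its log2 fold change was -1.09 ± 0.28 (SE, adjusted p = 0.00421). Within set 1 alone the call was lost (-0.85, adjusted p = 0.14). Of 21 tested rod phototransduction genes, 8 were lower and 4 higher (median -0.49). The lower ones include gnat1, the rod transducin alpha subunit, with 1921, 2398 and 3046 at 24 hpl and 4355, 4898 and 5604 at 0 h (-1.03, adjusted p = 0.00531). They also include gngt1, the rod transducin gamma subunit, with 1818, 2427 and 3034 at 24 hpl and 7471, 8420 and 9135 at 0 h (-1.83, adjusted p = 1.92e-05). Both subunits were lower in all 6 lit retinas than in any dark one. As for rho, the call of gnat1 was lost in set 1 alone (-1.03, adjusted p = 0.0811).

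Transcripts of proteins that regulate the response changed in both directions. The rhodopsin kinase family gene grk1b had 37.2, 73.6 and 145 at 24 hpl, against 647, 925 and 1294 at 0 h (-3.71, adjusted p = 2.27e-07). This gene was counted in the rod list, but whether rods or cones express it was not tested. The recoverin gene rcvrna, whose protein restrains rhodopsin kinase, had 72.8, 264 and 391 at 24 hpl, against 622, 674 and 809 at 0 h (-1.61, adjusted p = 0.00138). In set 2 alone the call of rcvrna was lost (-1.39, adjusted p = 0.104). In contrast the arrestin saga, which caps activated rhodopsin, rose, with 1066, 1390 and 2769 at 24 hpl against 316, 401 and 961 at 0 h (1.76, adjusted p = 2.57e-06). The guanylate cyclase activator guca1a rose as well (2.95, adjusted p = 7.38e-06), though unevenly. Replicates 1 and 3 of 24 hpl had 405 and 328, and the other 24 hpl retinas 32.8 to 42.5, against 6.03 to 15.7 at 0 h. The phosphodiesterase subunit pde6a was at -1.02 (adjusted p = 0.0339), a call lost when any of 5 libraries was left out (24 hpl replicate 4, 5 or 6, 0 h library A of either set).

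The cone cascade showed the same mixture, with 5 of 19 tested genes lower and 3 higher (median -0.12). The cone transducin subunits fell, gnat2 with 1943, 3386 and 4025 at 24 hpl against 8056, 10420 and 11940 at 0 h (-1.68, adjusted p = 4.64e-05). For gnb3b the values were 3944, 5783 and 7814 at 24 hpl, against 18300, 27400 and 31260 at 0 h (-2.18, adjusted p = 1.47e-09). The cone opsin kinase grk7b was lower too (-1.63, adjusted p = 0.00288). In set 2 alone the calls of gnat2 and grk7b were lost (adjusted p = 0.074 and 0.17). The 3 that rose were the recoverin rcvrn3 and both cone arrestins. For rcvrn3 the values were 1946, 3480 and 6140 at 24 hpl, against 424, 481 and 714 at 0 h (2.80, adjusted p = 3.04e-13). The arrestin arr3a had 9147, 15690 and 22040 at 24 hpl, against 3494, 5221 and 7441 at 0 h (1.57, adjusted p = 2.8e-06), and arr3b rose by 1.91 (adjusted p = 9.02e-07). These 4 transducin subunits of rods and cones were lower, and these 3 arrestins higher, in all 6 lit retinas than in any dark one. They are named list members or genes the study plots, and do not stand for all transducin or arrestin genes. By the same measure, 8 of 21 rod genes lay below the dark range and 2 above it. Of 19 cone genes, 4 lay below and 3 above. The shares of all tested genes were 2.92% below and 3.98% above.

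Of 14 tested outer segment genes, 7 were lower and 4 higher. The disc rim protein gene prph2b fell, with 305, 324 and 589 at 24 hpl against 921, 1372 and 1753 at 0 h (-1.82). Retinoschisin rs1a, a secreted adhesion protein of photoreceptors, rose, with 2049, 2161 and 2713 at 24 hpl against 412, 510.4 and 754 at 0 h (2.08, adjusted p = 9.2e-13). The trafficking factor unc119b and the cadherin cdhr1a rose by 1.39 and 1.22. Among 28 tested photoreceptor transcription factors, 13 were lower and 3 higher. Of the 3, 1 was left without 24 hpl replicate 1, 4 or 6, without 0 h replicate 2, 3 or 5 or without 0 h library A of set 1. The retinal homeobox genes rx1 (-1.50) and rx2 (-2.10) and the nuclear receptor nr2f6b (-1.54) fell, and the thyroid hormone receptor thraa rose, with 260.5, 515 and 718 at 24 hpl against 68.7, 119 and 189 at 0 h (1.98). Outside these lists, tmx3, a membrane disulfide isomerase, was among the 12 largest falls, with 9.88, 24.7 and 64.2 at 24 hpl against 363, 400.3 and 459 at 0 h (-3.89, adjusted p = 4.75e-13). Another was mycla, a Myc family gene (-3.31).

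**Figure D2:**
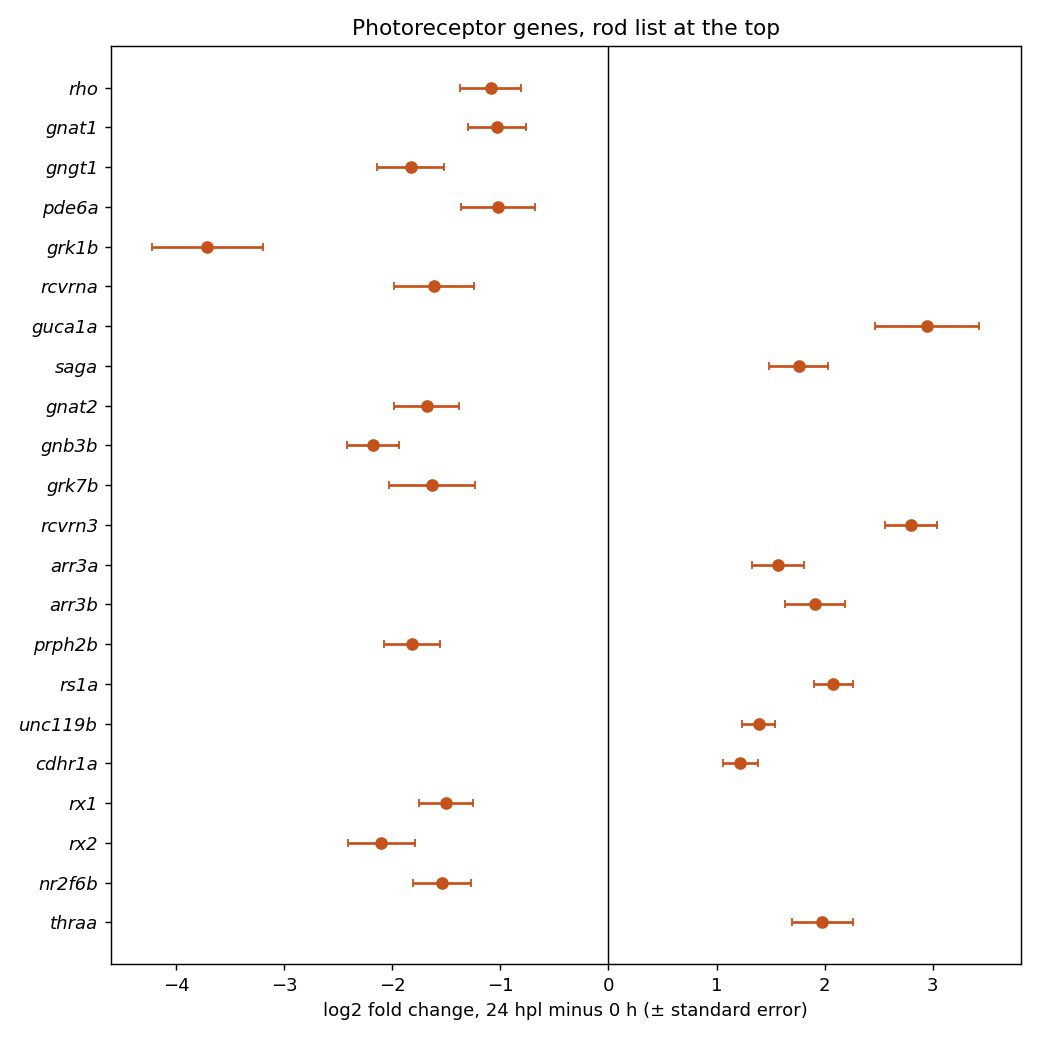
Points are the log2 fold change, 24 hpl minus 0 h, and bars its standard error for 22 photoreceptor genes (n = 6 retinas per group). Genes are grouped by the list they were counted in, rod cascade at the top, then cone cascade, outer segment and transcription factors. The named arrestins (saga, arr3a, arr3b) lie right of 0 and the named transducin subunits (gnat1, gngt1, gnat2, gnb3b) left of it.

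Period and several cryptochrome proteins repress the circadian clock, whereas cry-dash is photolyase-like. Of 12 tested genes of these families, cry-dash included, 9 were higher and 1 lower, with a median log2 fold change of 1.35. The light-induced gene per2 had 462, 738 and 1033 at 24 hpl, against 55.7, 71.3 and 82.2 at 0 h (3.43, standard error 0.16, adjusted p = 5.24e-22). The cryptochrome cry1aa had 582, 694 and 1224 at 24 hpl, against 191, 242 and 297 at 0 h (1.66). For cry2 the values were 766, 996 and 2401 at 24 hpl, against 125, 159.9 and 197 at 0 h (2.83). Each of these 3 genes was higher in all 6 lit retinas than in any dark one. Another period gene, per1a, rose by 3.11 (adjusted p = 0.000164).

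Of 16 tested activators and nuclear receptors of the loop, 4 were lower and 2 higher, 1 without 24 hpl replicate 1, 4 or 6 or 0 h replicate 3. The activator arntl1a (bmal1) had 11.8, 23.9 and 31.1 at 24 hpl, against 82.4, 99.1 and 135 at 0 h (-2.21, adjusted p = 1.42e-09). The receptors that drive arntl genes, rorcb (-2.91) and rorab (-0.93), fell, and nr1d1, the Rev-erb that represses them, rose, with 121, 152 and 236 at 24 hpl against 8.25, 13.2 and 32.2 at 0 h (3.45, adjusted p = 2.71e-15). Among 23 tested clock output genes, 9 were higher and 3 lower. The D-box activator tefa had 1097, 1373 and 1796 at 24 hpl, against 105, 179.9 and 233 at 0 h (3.04, adjusted p = 7.11e-25), while nfil3-5, of the family that competes for the D-box, had 7.68, 18.5 and 59.6 at 24 hpl against 84.6, 209 and 393 at 0 h (-3.07). The groups overlapped for neither gene. The repressors ciarta and bhlhe41 rose by 4.06 and 3.01, and dbpb by 2.41. The hour of the day at which retinas were taken is not stated. By the study's methods, 0 h retinas were taken right after dark adaptation, before the light began, and 24 hpl retinas 24 h after light onset. Nominally, then, both groups of a round fall at the same hour of the day.

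Of 16 tested photolyase and ultraviolet repair genes, 7 were higher, also without 24 hpl replicate 1, and 1 lower, a call lost without any of 9 libraries. The damage sensor ddb2 had 219, 244 and 288 at 24 hpl, against 5.16, 9.56 and 17.9 at 0 h (4.51, standard error 0.22, adjusted p = 8.7e-22). The gene cry-dash, counted here and among the cryptochromes, had 76.7, 102 and 204 at 24 hpl, against 1.1, 3.88 and 9.78 at 0 h (4.52). The damage sensor xpc rose by 1.77, with 24 hpl replicate 1 (101) inside the 0 h range. The glycosylase neil1 rose by 1.23 and wdr76, a WD repeat gene, by 4.09 (adjusted p = 2.55e-11). Of 24 tested p53 targets, 7 were higher and 1 lower (2 without 0 h replicate 3), but 4 were higher without 24 hpl replicate 1 or 0 h replicate 3, and 3 without 0 h replicate 6. They include gadd45aa (2.32) and the sestrin sesn1 (1.48).

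**Figure D3:**
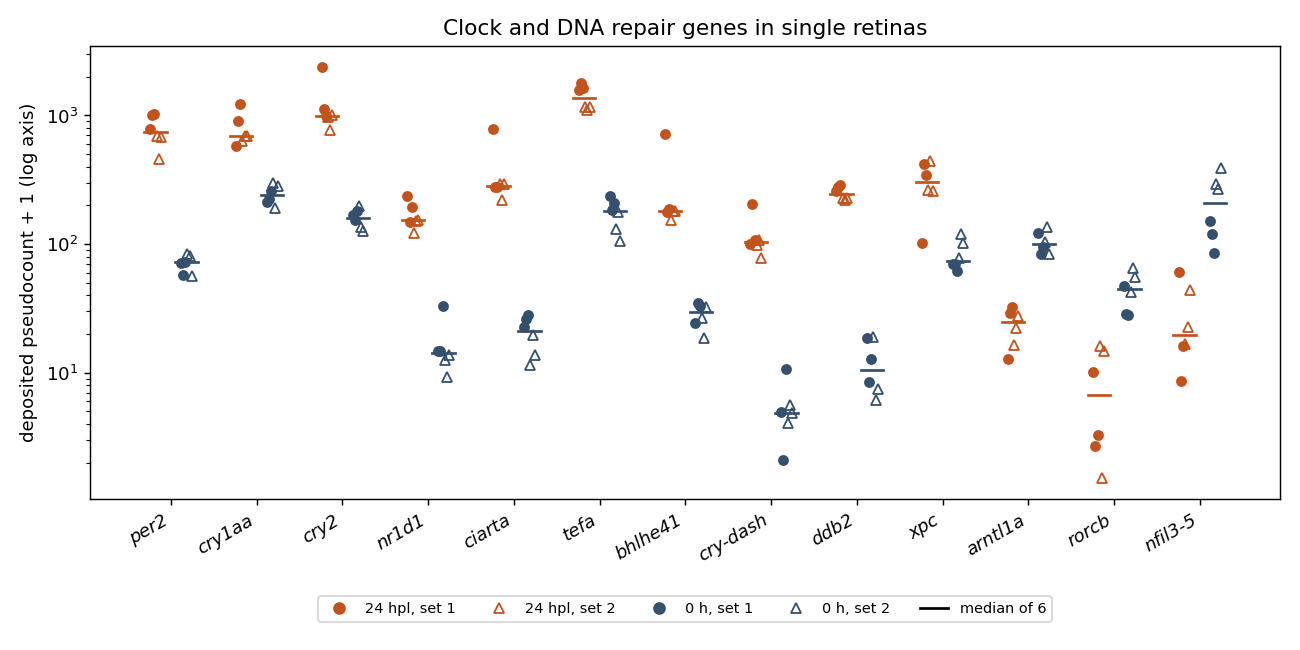
Deposited pseudocount + 1 (log axis) of clock and repair genes in each retina, 24 hpl left of 0 h, with filled circles for set 1, open triangles for set 2 and a bar at the median of 6. The 24 hpl retinas lie above the 0 h retinas for per2 (462 to 1033, against 55.7 to 82.2) and below them for arntl1a (11.8 to 31.1, against 82.4 to 135).

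Of 20 tested prostaglandin and eicosanoid genes, 6 were higher and 0 lower by limma (1 lower at an unadjusted p under 0.05, and 1 called without library A of set 2 at 0 h). The prostaglandin D synthase ptgdsb.1 had 389, 604 and 1546 at 24 hpl, against 5.31, 16.2 and 26.3 at 0 h (5.60, adjusted p = 2.31e-11), and its neighbour ptgdsb.2 rose by 2.74. Reads of this pair of near copies may be shared. The cyclooxygenase ptgs2b had 39.5, 108 and 429.9 at 24 hpl, against 2.82, 8.68 and 17.7 at 0 h (3.64, adjusted p = 0.000507), and ptgs2a rose by 1.87. The gene fam213b, a prostaglandin F synthase, was near 0 in the dark, with 39.1, 51.5 and 78.5 at 24 hpl against 0, 0.025 and 1.97 at 0 h (5.44, a value that depends on the added 1).

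Of 30 tested interferon and antigen presentation genes, 12 were higher, 9 without 24 hpl replicate 1, and 0 lower by limma (0 at an unadjusted p under 0.05). In set 1 alone 9 were higher and in set 2 alone 4. The ubiquitin-like isg15 had 22.4, 56.5 and 144 at 24 hpl, against 0, 2.05 and 6.26 at 0 h (4.71, adjusted p = 6.61e-07). The kinase pkz and the RNA sensor dhx58 rose by 3.31 and 2.89, the transcription factor stat2 by 1.95 and the immunoproteasome subunit psmb8a by 2.06. Outside the list, ebi3, a cytokine subunit, was the largest rise of all, with 55.8, 194 and 459 at 24 hpl against 0, 1.37 and 2.95 at 0 h (6.35, adjusted p = 1.25e-13). Of 27 tested inflammation genes, 4 (14.8%, against 8.37% of all genes) were higher and 0 lower by limma (1 lower at an unadjusted p under 0.05). The 4 include the chemokine cxcl12b (2.07), the inhibitor nfkbiaa (1.43) and nfkb2 (0.99).

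Of 36 tested microglia and macrophage genes, 4 were higher and 1 lower. The higher share was near the 8.37% of all tested genes, and the lower share was under their 7.14%. The macrophage gene mpeg1.1 had 0.79, 12.4 and 27.7 at 24 hpl, against 6.79, 10.7 and 13.7 at 0 h (-0.11, standard error 0.42, adjusted p = 0.899), the lowest being replicate 1, and apoeb was at 0.17 (adjusted p = 0.599). The 4 defining microglia markers summed to 11.8 to 34.9 at 24 hpl, against 11.9 to 22.1 at 0 h. Lysozyme, lyz, a neutrophil and macrophage gene, rose, with 24.5, 27.9 and 52.5 at 24 hpl against 1.5, 5.04 and 12.8 at 0 h (2.56), whereas mpx, the other neutrophil marker, had 0 to 1.87 at 24 hpl and 0 in every 0 h retina. The neutrophil markers summed to 24.5 to 52.5 at 24 hpl, against 1.5 to 12.8 at 0 h, and their part in the immune results was not tested. The lysosomal protease ctsd rose (1.66) and aif1l fell (-0.93).

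Of 24 tested Müller glia genes, 5 were higher and 4 lower. The higher ones include ptgdsb.1 and ptgdsb.2, which are also counted among the prostaglandin genes. The fatty acid binding proteins split: fabp7a had 91.9, 132 and 146 at 24 hpl, against 898, 1083 and 1424 at 0 h (-3.18, adjusted p = 2.09e-13), fabp11b had 10.8, 28.4 and 42.5 at 24 hpl, against 193, 399 and 647 at 0 h (-3.86), and fabp11a rose by 2.22. The intermediate filament gfap was at -0.93 (adjusted p = 0.0341), a call lost without any of 5 libraries (24 hpl replicate 2, 5 or 6, 0 h library A of set 1, 0 h replicate 2). Of 36 tested reprogramming genes, 8 were lower and 4 higher. The repressor tgif1 had 30.2, 37.2 and 46.7 at 24 hpl, against 139, 176 and 249 at 0 h (-2.24), pdgfaa and sox4a fell (-2.60 and -1.10), and the neurotrophic factor cntf rose (1.92). The progenitor gene sox11b had 33.0, 73.7 and 137 at 24 hpl, against 32.3, 48.6 and 56.6 at 0 h (0.75, adjusted p = 0.0457), and its call was lost on leaving out any of 10 of the 12 libraries. Of 39 tested cell cycle genes, 0 were higher by limma (2 at an unadjusted p under 0.05). The 1 that was lower, hmgb2a (-0.42), lost its call under both rescalings, and pcna was at 0.10 (adjusted p = 0.779).

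Of 27 tested genes of the visual cycle, which regenerates retinal for opsins, and of the pigment epithelium, 10 were higher and 3 lower. The retinol dehydrogenase rdh5 had 92.8, 346 and 517 at 24 hpl, against 11.6, 52.6 and 87.3 at 0 h (2.58), and the isomerase rpe65a 1924, 3521 and 5165 at 24 hpl, against 507, 1038 and 1343 at 0 h (1.84). In all 6 lit retinas both lay above the dark range. The retinol carrier rbp4l rose by 2.03, and its relative rbp4 rose as well. The retinol acyltransferase lrata fell, with 2.3, 4.18 and 9.59 at 24 hpl against 12.6, 25.8 and 58.4 at 0 h (-2.21). The 4 defining pigment epithelium markers summed to 2380 to 6950 at 24 hpl, against 841 to 2020 at 0 h, so their sum moved with the time-point. Of the 4, rpe65a and tyrp1b rose (tyrp1b by 1.62), while pmela and dct had adjusted p of 0.467 and 0.879. How far carry-over of pigment epithelium bears on these values was not tested. Among 16 tested non-visual opsins, 2 were higher and 2 lower (12.5% each, against 8.37% and 7.14% of all genes). The higher ones were rgra (1.85) and opn6a (0.77), and 1 of the 2 calls was lost without 24 hpl replicate 1 or 0 h replicate 2. The 2 lower ones (3 without 24 hpl replicate 5) were opn9 (-1.66) and opn4b (-0.99).

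Of 48 tested glycolysis and lactate genes, 19 were higher, 13 without 24 hpl replicate 1, and 2 lower. In set 1 alone 16 were higher and in set 2 alone 5. The lactate transporter slc16a3 had 105, 556 and 2860 at 24 hpl, against 60.4, 66.9 and 92.9 at 0 h (2.86, adjusted p = 0.000273). Lactate dehydrogenase ldha had 623, 1433 and 3974 at 24 hpl, against 343, 374 and 612 at 0 h (1.79), and the regulators pfkfb3 and pfkfb4b rose by 2.32 and 1.86. The hypoxia-induced hydroxylase egln3 rose by 2.66. The lit retinas differed among themselves, since slc16a3 had 2860, 821 and 1121 in replicates 1, 4 and 6 and 264, 290.5 and 105 in replicates 2, 3 and 5. Of 78 tested respiratory chain genes, 10 were higher and 0 lower by limma (1 lower at an unadjusted p under 0.05). The higher share was 12.8%, against 8.37% of all tested genes, and the median log2 fold change of the list was 0.02. The 10 include sdha, of complex II, with 1446, 1667 and 2208 at 24 hpl against 274, 323 and 429 at 0 h (2.37, adjusted p = 1.08e-15). They also include cycsb (2.05), ndufv1 (1.84), sdhb (1.36) and cyc1 (1.19). Of 37 fatty acid oxidation genes 8 were higher and 3 lower, with acadvl at 2.38, the uncoupling proteins ucp1 and ucp2 at 2.42 and 3.24, and hadh at -1.59. Of 35 cholesterol synthesis genes 5 were higher and 6 lower (14.3% and 17.1%, median -0.16), with hmgcra, the rate-limiting reductase, at -1.44. The 5 became 2 without 24 hpl replicate 1, 4 or 6 or 0 h replicate 2, and 3 without 0 h replicate 3 or 5 or 0 h library A of set 1.

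Of 49 tested oxidative stress defence genes, 16 were higher and 1 lower (0 without 24 hpl replicate 4). Thioredoxin, txn, had 109, 118 and 136 at 24 hpl, against 3.24, 11.5 and 17.7 at 0 h (3.54, adjusted p = 3.6e-09). Biliverdin reductase, blvra, had 16.3, 28.2 and 44.6 at 24 hpl, against 0.0191, 1.79 and 2.93 at 0 h (3.56). The heme oxygenase hmox2a had 318, 372 and 408 at 24 hpl, against 40.5, 48.9 and 82.8 at 0 h (2.77). The peroxiredoxin prdx1 rose by 3.11. Of 37 tested heat shock and chaperone genes, 8 were higher and 1 lower. The 1 became 4 without 24 hpl replicate 5 and 2 without 24 hpl replicate 3, 0 h replicate 6, or library A of either set at 0 h. The higher ones include hsf2 (1.86), hspe1 (1.66) and hsp70.3 (2.92), a member of a family of near-identical copies. The glucocorticoid-induced chaperone partner fkbp5 had 17.1, 212 and 461 at 24 hpl, against 4.88, 9.2 and 17.5 at 0 h (3.48), with 452, 378 and 461 in replicates 1, 4 and 6 and 17.1 to 46.9 in the other 24 hpl retinas, the lowest of which lay inside the 0 h range. Of 36 endoplasmic reticulum stress genes, 8 were higher and 5 lower (1 without 24 hpl replicate 1, 3 without replicate 4). The higher ones include hspa5 (1.87), herpud1 (1.65) and hyou1 (1.19). Of 32 early genes, 5 were higher and 4 lower (15.6% and 12.5%, against 8.37% and 7.14% of all genes). They include atf3, with 265, 279.5 and 655 at 24 hpl against 19.6, 34.5 and 50.7 at 0 h (3.17), ppp1r15a (2.83), maff (1.51) and dusp5 (1.36), while egr4, induced by neuronal activity, fell (-2.18).

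Of 43 inner retinal neuron genes 3 were higher and 10 lower, 6 without 24 hpl replicate 4. The 10 include isl1 (-1.02) and prox1a (-0.87), but only 1 gene of the list was lower in set 1 alone and 0 in set 2 alone. Of 28 synapse genes 4 were higher and 2 lower (14.3% and 7.14%, against 8.37% and 7.14% of all genes). Among them cplx4b was at 1.55, and cacna1fb, a photoreceptor calcium channel, and syt5b were at -1.32 and -1.22. Of 15 potassium and HCN channel and pump genes 3 were higher and 1 lower (20% and 6.67%). The higher ones include the sodium pump subunits atp1b1b (1.82) and atp1b1a, and the lower one was kcnv2b (-1.13). Of 79 ribosomal protein genes 0 were higher and 5 lower by limma (0 and 30 at an unadjusted p under 0.05). The 5 were 6.33%, against the 7.14% of all genes, and include rps19 (-0.54). All 79 had log2 fold changes below 0, from -0.54 to -0.07, with a median of -0.24. In set 1 alone 16 were lower and in set 2 alone 0. The 5 became 15 without 24 hpl replicate 5, 2 without 0 h replicate 2 and 3 without 24 hpl replicate 2, 4 or 6 or 0 h library A of set 2. Of 40 proteasome genes 1 was higher and 3 lower (2.5% and 7.5%). The higher call was lost without any of 7 libraries (24 hpl replicate 2, 3, 5 or 6, library A of set 2 at 0 h, 0 h replicate 3 or 5). The 3 lower became 1 without 24 hpl replicate 1 and 5 without replicate 5. Of 13 lens-type crystallins 0 were higher and 0 lower by limma (2 and 2 at an unadjusted p under 0.05). Of 32 blood, skin and muscle genes 1, the keratin krt8, was higher, and of 17 egg and ovary genes 1, the vitellogenin vtg1, with 0 lower in both (0 and 2 at an unadjusted p under 0.05). Calls of both genes were lost on leaving out single libraries. Outside the lists, the largest rises included crtac1a (4.08), which encodes a secreted matrix protein, and the kinase dapk2a (3.76).

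**Figure D4:**
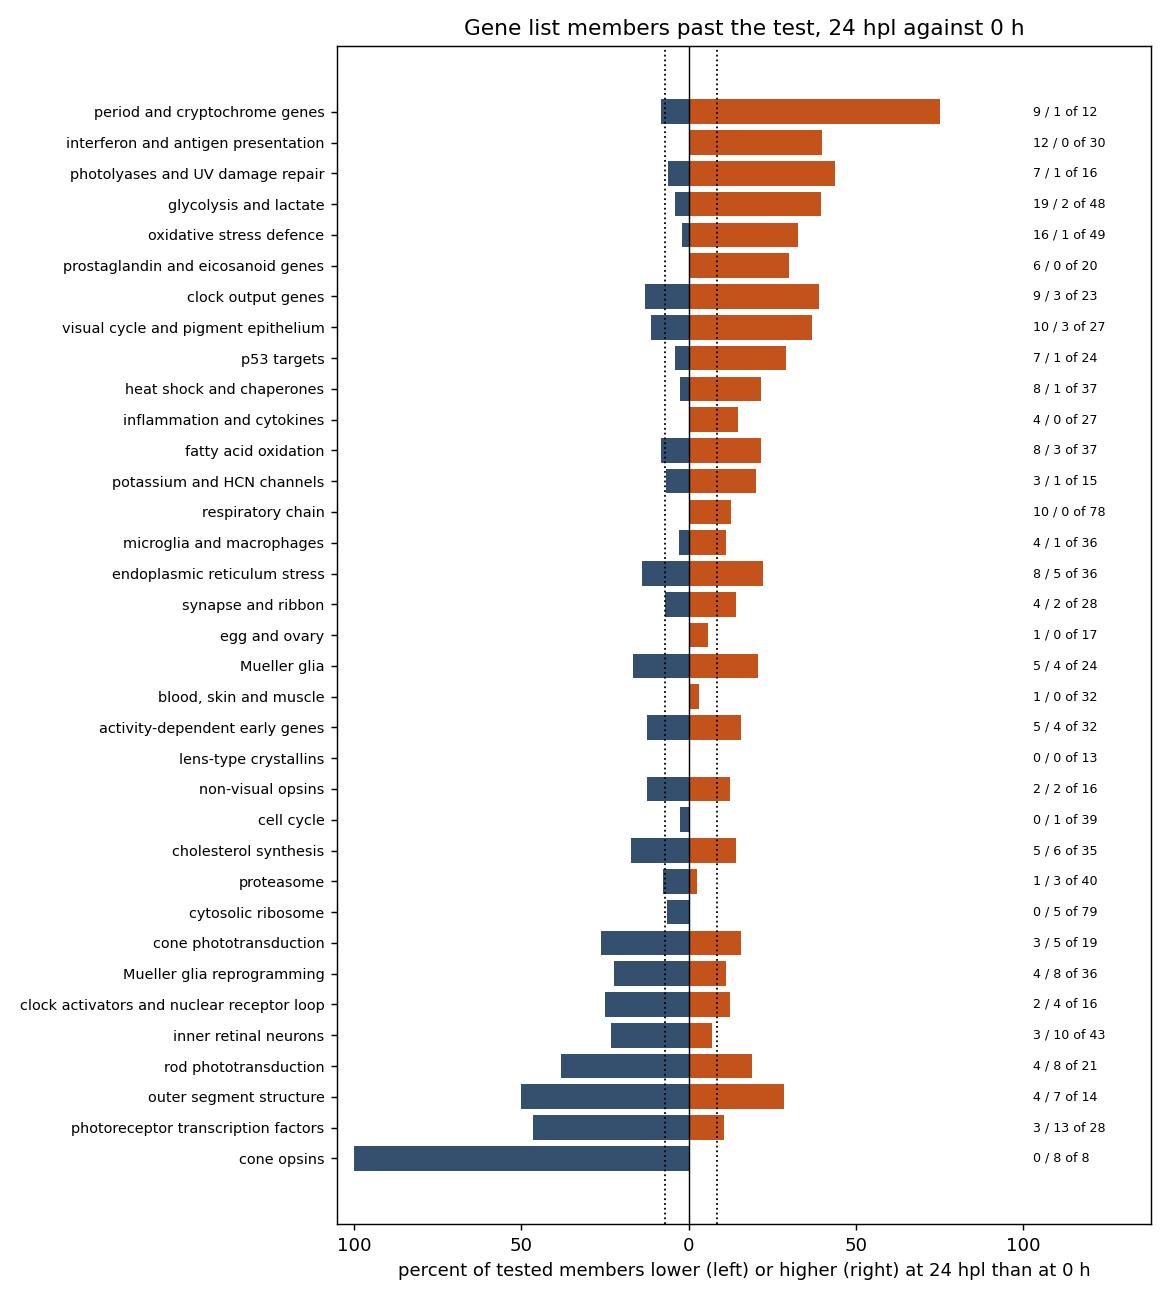
Percent of tested members of each of 35 gene lists that were higher (orange, right) or lower (blue, left) at 24 hpl than at 0 h by adjusted p alone, with counts at the right as higher / lower of tested. Dotted lines mark the share of all tested genes, 8.37% higher and 7.14% lower, which cone opsins (8 of 8 lower) and period and cryptochrome genes (9 of 12 higher) exceed.

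Set against the mean of the 6 later light time-points in the same fit, 270 genes were higher at 24 hpl (2.37%) and 343 lower (3.01%) at a fold of at least 2, and 6.99% and 15.6% by the adjusted p alone. This comparison shares its 24 hpl retinas with the one above. After median-of-ratios rescaling the median of all genes here shifted by 0.143, from the -0.116 of the deposited values, and gave 405 higher and 223 lower, while upper quartile rescaling moved it by 0.127 and gave 384 and 233. Without 24 hpl replicate 1, 173 were higher and 269 lower.

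The stress and immune lists given next held more genes below the later level than above it, as did all tested genes (15.6% against 6.99%). The order turned round for heat shock genes (without 24 hpl replicate 1 or after either rescaling) and for oxidative stress genes (after either rescaling). Inflammation genes were level at 3 and 3 after either rescaling. Early genes (6 higher, 5 lower) and p53 targets (7 higher, 3 lower) went the other way. Their higher counts ran from 3 to 7 and from 2 to 6 on leaving out single 24 hpl libraries. Against later light, 4 endoplasmic reticulum stress genes were higher (2 without 24 hpl replicate 1) and 12 lower of 36 tested. Of 37 heat shock genes 3 were higher and 9 lower (3 lower without 24 hpl replicate 1, and 6 higher and 4 lower after either rescaling), and of 49 oxidative stress genes 6 and 9 (7 higher and 4 lower after either rescaling). Microglia and macrophage genes had 1 higher and 11 lower, interferon genes 1 and 5, and inflammation genes 2 and 4. The higher counts of these last lists ran from 0 to 3 on leaving out single 24 hpl libraries. Single genes stood well above the later level. For fkbp5 the log2 difference was 3.15 ± 0.60 (SE, adjusted p = 8.59e-05), for ebi3 3.07, for the kinase camkk1b 2.45, for ptgs2b 2.43 and for slc16a3 2.24. The pteridine synthesis gene gch2, among the 12 largest rises against 0 h (3.92), was higher than later by 2.29. The mean of ebi3 was 209 ± 147 at 24 hpl, 11.7 ± 7.01 at 36 hpl and 31.4 ± 26.8 at 28 dpl (SD, n = 6 each). The peptidase-like prepl was higher than later (2.36) without passing the test against 0 h (1.41, adjusted p = 0.108). It did pass that limma test with only the 24 hpl and 0 h libraries in the fit (adjusted p = 0.00246). In contrast the difference of ptgdsb.1 from the later level was 0.27 (adjusted p = 0.716).

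Of 12 period and cryptochrome genes 8 were higher than later and 2 lower, and of 23 clock output genes 11 and 5. Of 16 clock activators and nuclear receptors 3 were higher and 6 lower (3 lower without 24 hpl replicate 2 or 3 or after median-of-ratios rescaling, 2 lower without 36 hpl). Of 16 repair genes 5 were higher (3 without 24 hpl replicate 3) and 1 lower (2 without 24 hpl replicate 2, 4 or 5). Named members that were higher include per2 by 1.39, cry2 by 1.54, ciarta by 2.23 and ddb2 by 0.91, and arntl1a was lower, with a log2 difference of -1.50. The mean of per2 was 776 ± 216 at 24 hpl, 176 ± 37.7 at 36 hpl and 389.9 ± 74.1 at 5 dpl (SD, n = 6 each). That of ddb2 was 249.7 ± 28.8 at 24 hpl, 75.4 ± 14.3 at 36 hpl and 195 ± 37.1 at 5 dpl. For both genes the 36 hpl mean was below those of 24 hpl and 5 dpl. Nominally 36 hpl falls at another hour of the day than 24 hpl and 5 dpl, and the part of that hour was not tested. Of 21 rod phototransduction genes 14 were higher than later and 0 lower by limma (1 lower at an unadjusted p under 0.05), with gnat1 at 0.85 ± 0.21 (SE, adjusted p = 0.00167) and pde6a at 1.38. For rho the difference was 0.61 (adjusted p = 0.0335), lost without 24 hpl replicate 1, 2 or 3. All 8 cone opsins were lower than later, with log2 differences of -5.68 for opn1mw1 and -1.47 for opn1sw2.

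The genes furthest below the later level included fabp11b (-4.22), lrata (-3.07) and nfil3-5 (-2.96). The progenitor gene sox11b was lower than later, with a log2 difference of -2.79 ± 0.20 (SE, adjusted p = 4.1e-14). Its mean was 83.4 ± 38.8 at 24 hpl, 954 ± 488 at 72 hpl and 1492 ± 339.8 at 5 dpl (SD, n = 6 each). Cell cycle genes were lower than later in 16 of 39 and higher in 0 by limma (1 at an unadjusted p under 0.05, and 1 called without 24 hpl replicate 1), and mpeg1.1 was lower (-1.42, adjusted p = 0.000809). All 79 ribosomal protein genes were lower than later (median -0.75, against -0.116 over all genes), 78 after either rescaling, and 35 of 40 proteasome genes were lower, 26 after either rescaling.

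**Figure D5:**
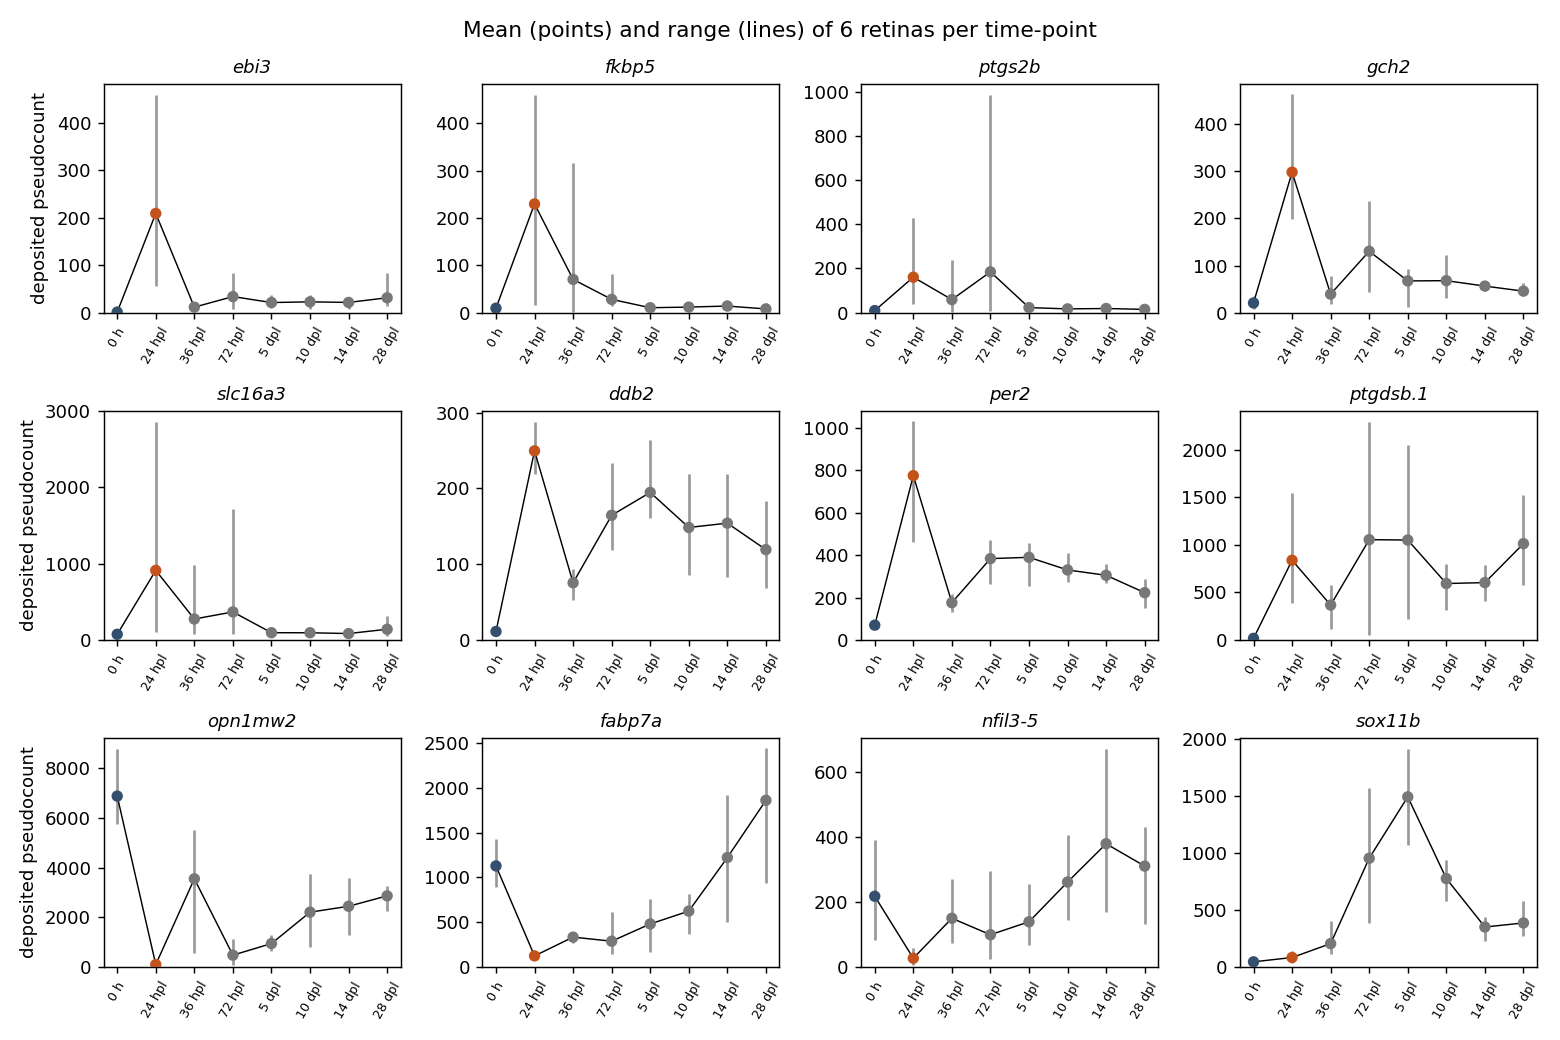
Mean (points) and range (lines) of the deposited pseudocount in 6 retinas at each time-point, in order of time in light, for 12 genes, with 0 h in blue and 24 hpl in orange. Means of ebi3, fkbp5, gch2 and slc16a3 are highest at 24 hpl, those of opn1mw2, fabp7a and nfil3-5 are lowest there, and sox11b is highest at 5 dpl.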

How the data were processed

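QuantSeq 3′ mRNA-seq libraries of single left-eye retinas were read from 1 deposited table. The values are signal: per the labels and the study's methods the authors used STAR to align the reads and HTSeq to count them, and deposited edgeR pseudocounts, which scale each library to a common size (versions are not given in the sources used here). The genome build is written dR10, and no coordinates were used. Since pseudocounts are not whole reads, no count model was run and the depth of each library is unknown.

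limma (version 3.58.1, R 4.3.3) was fitted to log2(value + 1) of all 48 libraries, with terms for time-point and for library set (39 residual degrees of freedom), trended empirical Bayes and Benjamini-Hochberg adjustment. Of 15245 rows, 12 whose symbols had become dates (0.128% of the signal) were left out. A gene was tested if 6 or more libraries reached a value of 5, which held for 11395. Counts of changed genes require 2-fold or more and an adjusted p below 0.05, and single genes and list members by the adjusted p alone. Another contrast set 24 hpl against the mean of the 36 libraries of later light, and the interaction of time-point and set asked whether the change differed between sets. Set membership was taken from the column names and replicate numbers. The labels attach the column suffix to the opposite set, and 2 of the 0 h columns carry no replicate number (library A of either set).

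Named genes are the 12 largest rises and 12 largest falls with the same sign in both sets and a mean of at least 20 in the higher group (symbols that name only a locus left out), the 8 highest and 8 lowest against later light by the same filters, up to 5 members of each of 35 gene lists, and the genes the study plots. The genes gadd45ga and tyrp1b were named after their values were seen. The members and lists were chosen with earlier results of these data known. Of 15233 symbols, 14990 were found in the RefSeq table by symbol or synonym.

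The fit was tested on simulated data before use. It made few false calls and recovered most 4-fold changes without bias, but missed many 2-fold changes. The condition for passing the test was loosened after a first run failed it for 2-fold changes, so genes not called here may have changed by such an amount. Alternatives covered the pseudocount, filters, thresholds, scaling, terms of the fit, each set alone, a replicate block and leaving out each library.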

Additional observations from a re-analysis of the deposited data

Results flagged for a closer look

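In 278 groups of 6 values (the genes followed, at 24 hpl and at 0 h), 28 had a lowest or highest retina far from the other 5. Chance alone gives about 1 in 20 if values are normally distributed. That rate cannot be applied to values near 0, such as dhx58 (1.25, the nearest at 0.0186) and fam213b (1.97, the nearest at 0.036) at 0 h. Of these, 14 were at 24 hpl and 14 at 0 h. At 24 hpl, 12 of the 14 were in replicate 1. It was the lowest retina for rcvrna (72.8, the nearest at 209), gnat2 (1940), nr2f6b (80.1), xpc (101), sox4a (30.8), hsp70.3 (1.69) and tyrp1b (280). It was the highest for cry2 (2400), ciarta (780, the nearest at 293), bhlhe41 (711, the nearest at 188), atf3 (655, the nearest at 298) and hmgcra (78.7). In 24 hpl replicate 2, cry-dash was highest (204) and dbpb lowest (8.42).

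At 0 h, replicate 3 was highest for opn1mw3 (3590), nr1d1 (32.2), fam213b (1.97) and ldha (612) and lowest for rdh5 (11.6) and rpe65a (507). Library A of set 1 was highest for pde6a (1010), saga (961) and rcvrn3 (714), and library A of set 2 for dhx58 (1.25). Replicate 2 was highest for hsp70.3 (6.21) and lowest for blvra (0.019) and ucp2 (0.0283), and replicate 5 was lowest for prdx1 (2.16). Among genes seen at 0 h, replicate 2 had 0 zeros, against 2008 in library A of set 1 and 2188 in replicate 3. The set 2 libraries at 0 h also had 0.

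For 1 gene, gadd45ga, a stress-induced growth arrest gene, the change from 0 h to 24 hpl differed between the library sets by -3.37 on the log2 scale, set 2 minus set 1 (standard error 0.58, limma interaction, adjusted p = 0.0096). At 24 hpl its values ran from 353 to 903. At 0 h they were 29.4, 50.8 and 43.7 in set 1 and 357, 463 and 353 in set 2. At an unadjusted p under 0.05 the interaction gave 539 of 11395 genes. What separates the sets at 0 h was not tested.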

How the results depend on the processing

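With a fold of at least 4 in place of 2, 24 hpl had 141 higher and 44 lower genes against 0 h, and 23 and 27 against later light. With no minimum fold the counts were 954 and 814, and 796 and 1776. Set 2 alone gave 319 and 204, and 228 lower than later. A mean of at least 20 gave 175 and 171 against later light, median-of-ratios rescaling 223 lower and a pseudocount of 5 139 lower. Leaving out 1 library gave 497 to 628 higher and 256 to 391 lower than at 0 h, and 173 to 312 and 269 to 404 against later light, the lowest of each without 24 hpl replicate 1. The 1 gene that differed between sets became 0 without the trend, 2 with no filter on low values and 2 with only the 12 libraries, and 0 to 1 on leaving out 1 library (0 without replicate 1 or 5 of 24 hpl, replicate 5 of 0 h and library A of set 1 at 0 h, each in turn).

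Of 139 genes followed, 135 passed the test against 0 h, and 132 of them did so on leaving out each library in turn, the exceptions being gfap, pde6a and sox11b. Calls were lost for 18 of the 139 in set 1 alone, 24 in set 2 alone and 10 with the replicate block, and opn4b lost its call with no library set term (adjusted p = 0.0534). The value of mpeg1.1, never called against 0 h, ran from -0.36 to 0.37 on leaving out 1 library (0.37 without 24 hpl replicate 1, 0.00 without 0 h replicate 2, 0.01 without 0 h library A of set 1), and was 0.03 with a pseudocount of 5, 0.07 with the replicate block and 0.42 in set 2 alone, and that of pcna to -0.00 in set 1 alone. The difference of rho from later light lost its call without 24 hpl replicate 1, 2 or 3 (0.63, 0.55 and 0.50, adjusted p = 0.0561, 0.0915 and 0.126), and that of isg15 gained one without 24 hpl replicate 5 or without 36 hpl. Alternatives for single genes and lists against later light, and the one without 36 hpl, were chosen after seeing the data. The causes of these shifts were not tested.

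The replicate numbers do not pair the samples: deviations of same-numbered 24 hpl and 0 h retinas correlated at -0.015, -0.057, 0.14 and 0.051. With the replicate block, 492 genes were higher and 225 lower than at 0 h (267 and 340 against later light), and cplx4b, gfap, hmgb2a, kcnv2b, lrata, nfkb2, opn4b, pde6a, ptgs2a and sox11b lost their calls (adjusted p = 0.0547 to 0.26). Depth is unknown, so low values carry no counting interval. Fold changes had a median standard error of 0.325 (log2).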

Other observations

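The 6 retinas at 24 hpl were not alike in stress and glycolysis genes. For fkbp5, replicates 1, 4 and 6 had 452.5, 378 and 461, and replicates 2, 3 and 5 had 17.1, 46.9 and 22.5. The hydroxylase egln3 had 1100, 87.9 and 152 in the first 3 and 17.1, 18.4 and 26.1 in the others. The stress gene ppp1r15a had 4851, 1079 and 1637 in the first 3, and 311, 329 and 185.5 in the others. Replicate 1 is the highest for egln3 and ppp1r15a, and replicates 4 and 6 also lay above the remaining retinas for all 3 genes. Replicates 1, 4 and 6 were also higher on the first principal component (74.7, 44.2 and 48.2) than replicates 2, 3 and 5 (24.9, 15.9 and 13.7). Leaving out replicate 1, 4 or 6 gave 497, 541 and 529 genes higher than at 0 h. Leaving out replicate 2, 3 or 5 gave 610, 610 and 628. Both library sets hold retinas of either kind, and no label separates them. These retinas were picked out after their values were seen, so no test was made between them.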
